A study of Mus musculus with 18 samples.

Results

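The genes described here encode the enzymes and transporters of central carbon metabolism: glucose uptake, glycolysis, lactate dehydrogenase, the pentose phosphate pathway, pyruvate dehydrogenase and the TCA cycle. The set lists 36 genes by name, and its members were every probe set of the arrays whose platform annotation gave 1 of these symbols. Of the 36 genes, 31 had at least 1 probe set that could be tested, out of 12193 genes tested in all. The rule itself names genes and uses no measured value. Eno1, Gpi1 and G6pdx had no probe set with their symbol in the annotation used and are not analysed here. Both probe sets of Aldoc, an aldolase isozyme, were too dim to test, with signals of 9.5 to 83.8. Gapdh had 18 control probe sets and 3 that the annotation pairs with further symbols, so it had none to test and is described below from its controls.

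The data are 18 Affymetrix arrays of mouse spleen cells, made from 6 samples that were each hybridised to the U74A, U74B and U74C arrays. Each of 3 spleen populations has 2 samples: interferon producing killer-dendritic cells, called IKDC; plasmacytoid dendritic cells, called PDC; and conventional dendritic cells, called cDC. The series names cDC as the control population, and the samples of each population were prepared separately. Strain, age, any treatment of the mice, the sorting markers and the number of animals per sample are not given in the sources used here. With 2 samples a population, p-values measure only the spread between such samples, which may be partly technical.

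Glycolysis splits glucose into pyruvate in the cytosol and yields ATP and NADH, and lactate dehydrogenase turns pyruvate into lactate to regain NAD+. The pentose phosphate pathway branches off at glucose 6-phosphate and supplies NADPH and ribose, while pyruvate dehydrogenase feeds acetyl-CoA into the mitochondrial TCA cycle. In dendritic cells and lymphocytes, activation is known to raise glycolysis, and many of its enzymes are known targets of the transcription factors Hif1a and Myc, which bind sites that contain the letters ACGTG and CACGTG.

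In 24 of the 31 tested genes no comparison passed the test, against 88.6% of all tested genes, and in 20 of the 31 all 3 differences were under 1 log2 unit in size, against 69.3%. The 7 genes that passed were single enzymes at separate steps. Hk2, Taldo1 and Mdh2 were lower in IKDC than in cDC, and Pfkp and Pdha1 were higher. Hk2 and Mdh2 were also lower in PDC than in cDC. Between IKDC and PDC, Pfkp and Pgam1 were higher in IKDC and Ldhb was lower.

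A signal here is the deposited, linear intensity of a probe set, scaled per array to a mean of 150, and a difference is therefore relative to the average level of its array. Differences are given on the scale of log2(signal + 16), which understates the change of dim genes. A gene passed when its brightest tested probe set had a Benjamini-Hochberg adjusted p under 0.05 in the limma fit across all probe sets. Signals under 60 were treated as dim, and where both samples of a population lay under 60 the fold is given as a lower bound, computed against 60. Expression levels of different genes were not ranked, since probe sets differ in brightness. Where signals are set beside those of all genes, they stand for brightness and not for transcript amount. Signals summed over marker lists weigh the brightest genes most. In such bulk samples fewer cells of a type and less RNA per cell cannot be told apart.

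In IKDC versus cDC, 2 of the 31 genes were higher and 3 were lower, while 3.5% of all tested genes were higher and 4.07% were lower. In PDC versus cDC none of the 31 was higher and 2 were lower, against 2.25% and 2.75% of all tested genes. In IKDC versus PDC 2 were higher and 1 was lower, against 2.71% and 3.17%. By the same limma test 9, 8 and 10 of the 31 genes had an unadjusted p under 0.05 in these comparisons, in the order given, against 22.4%, 17.4% and 17.3% of all tested genes. These enzymes were brighter than most genes, with a median mean signal of 364.2 against 194.6 for all tested genes, and 22 of the 31 had a mean of 200 or more. Of those 22, 3 passed in IKDC versus cDC, 1 in PDC versus cDC and 1 in IKDC versus PDC. Among all genes that bright, 11.2%, 7.78% and 9.3% passed in the same comparisons. The comparisons of IKDC and of PDC with cDC share the cDC samples.

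The median log2 difference of the 31 genes was -0.16 in IKDC versus cDC, -0.31 in PDC versus cDC and 0.16 in IKDC versus PDC. Over all tested genes the medians were 0.01, 0.00 and 0.01. The 95% interval of the difference lay within 1 log2 unit of 0 for 13 of the 31 genes in IKDC versus cDC, 10 in PDC versus cDC and 13 in IKDC versus PDC. The arrays therefore do not bound the difference of most of the 31 genes to within 1 log2 unit. Under another scaling, with each array centred on its median, the median of all genes in IKDC versus cDC moved to 0.13 and that of the 31 genes to -0.01.

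**Figure D1:**
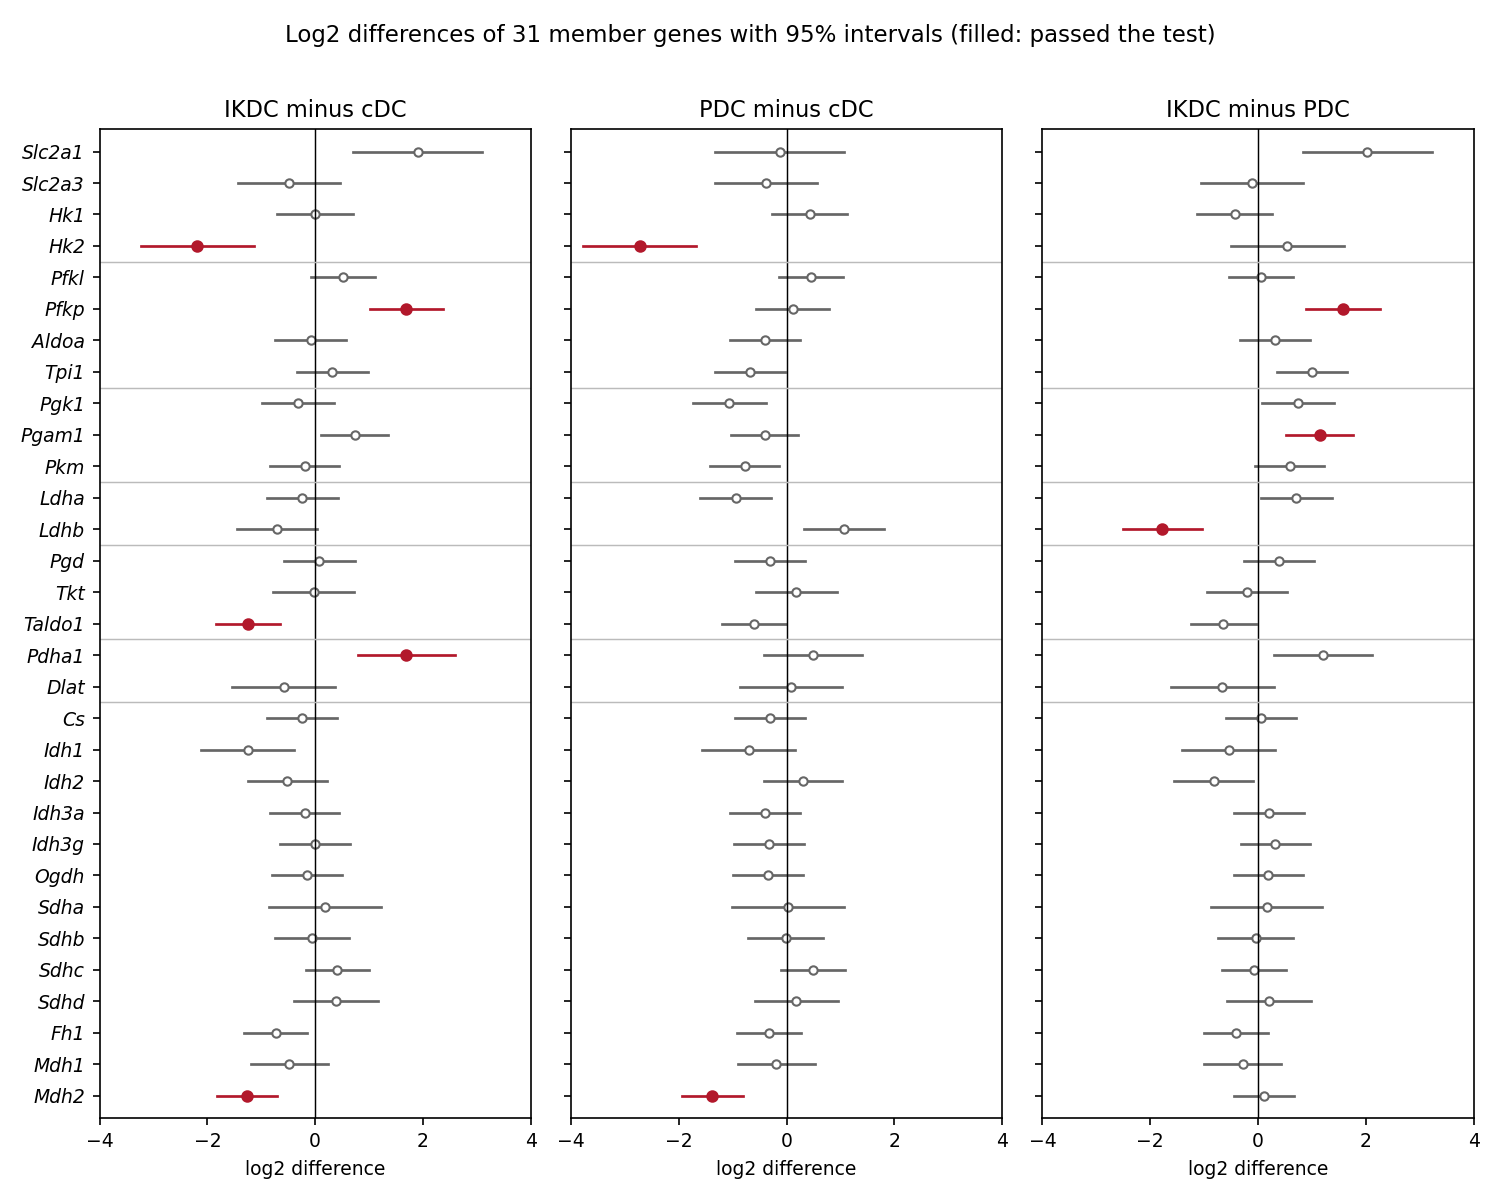
Log2 differences (x axis, log2 of signal + 16) of the 31 tested genes (y axis, ordered from glucose uptake at the top to the TCA cycle at the bottom, with lines between roles) in the 3 comparisons. Points are limma estimates and bars their 95% intervals, with filled red points for adjusted p under 0.05: 5 genes in IKDC minus cDC, 2 in PDC minus cDC and 3 in IKDC minus PDC.

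The labels were checked against marker lists. All 7 NK receptor and killing genes were higher in IKDC than in cDC and than in PDC. All 5 plasmacytoid genes were higher in PDC than in either other population. Of 6 conventional dendritic genes, 5 were lower in IKDC than in cDC, but only 3 were lower in PDC than in cDC. Cadm1 of that list read 6473 and 7591 in PDC and 3579 and 4341 in cDC, a difference that did not pass. Markers of other cell types gave signal too, and whether it came from the sorted cells themselves was not tested. The summed signal of 8 erythroid genes was 19269 and 23333 in IKDC, 1867 and 2911 in cDC, and 26754 and 14270 in PDC. The summed signal of 7 monocyte and macrophage genes was 4842 and 4868 in cDC, 564.4 and 543.3 in IKDC, and 1301 and 959.1 in PDC. No marker of either list was at 0, but a value above 0 does not show that a marker was present. In IKDC, Adgre1 read 6.6 and 6.5 and C1qa 15.9 and 16.8, while unspiked bacterial controls reached 45.2 on the same array type. In both samples of a population, 1 erythroid gene was under 60 in cDC, and 2 monocyte and macrophage genes, Adgre1 and C1qa, were under 60 in IKDC and in PDC. Of 7 tested pancreas genes 5 were higher in IKDC and 2 in PDC than in cDC, and the summed signal of all 8 on the arrays was 5272 and 3982 in IKDC, 2345 and 1832 in PDC, and 1063 and 1240 in cDC. Of 5 tested neutrophil genes 2 were lower in IKDC than in cDC, and the summed signal of all 7 on the arrays was 339.7 and 304.7 in IKDC, 839.6 and 261.1 in PDC, and 884.7 and 2671 in cDC. Of 4 tested T cell genes, Cd3g was higher in IKDC than in cDC and PDC, and Cd4 was lower in IKDC than in PDC. All 6 on the arrays summed to 1039 and 598.5 in IKDC, 998.9 and 1067 in PDC, and 746.4 and 554.3 in cDC. Cd4 alone gave 398.7 and 769.8 of the PDC sums. None of 5 tested B cell genes passed. Their summed signal was 2008 and 739.2 in IKDC, 1205.5 and 566.3 in PDC, and 727.6 and 533.1 in cDC. For the Gapdh control, 3' signal over 5' signal ranged from 2.97 to 6 over the 18 arrays. Replicates of PDC differed most, with a median gap of 0.50 log2 units over the 31 genes, against 0.30 in cDC and 0.24 in IKDC.

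Glucose uptake and its first phosphorylation were covered by 4 genes. Hk2 encodes hexokinase 2, the inducible isozyme that traps glucose as glucose 6-phosphate. Its signal was 198.4 and 248.2 in cDC, 64.2 and 18.2 in IKDC, and 27.6 and 13.7 in PDC. Both cDC samples lay above all 4 others, and only 1 sample outside cDC exceeded 60. Testing required 60 on at least 2 arrays, so Hk2 entered the test only through the cDC samples, where it was high. IKDC was lower than cDC (log2 difference -2.18, SE 0.48, adjusted p = 0.0206 by limma), and no fold is given because 1 of the 2 IKDC samples was dim. In PDC it was at least 3.7-fold lower than in cDC (log2 difference -2.73, SE 0.48, adjusted p = 0.00805 by limma). The second Hk2 probe set was under 21 in every sample and was not tested.

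Hk1, the constitutive hexokinase, did not pass in any comparison. Its signal was 542.3 to 589.3 in IKDC and cDC, and 1051 and 560.3 in PDC. The 95% interval of its IKDC minus cDC difference ran from -0.70 to 0.69, so a change of 1 log2 unit lay outside it.

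Slc2a1 encodes GLUT1, the widely expressed glucose transporter. Its signal was 84 and 91.7 in IKDC, 14.1 and 9.7 in cDC, and 16.2 and 4.1 in PDC. Both IKDC samples lay above 60 and all 4 others far below it, but the adjusted p by limma was 0.0732 against cDC and 0.0668 against PDC. The estimates were 1.90 (SE 0.55) and 2.03 (SE 0.55) on the log2 scale, with a ratio of at least 1.46 in each. Slc2a1 reached 60 only in the IKDC samples, which alone brought it into the test, and its level elsewhere is only a bound. Slc2a3, the high-affinity transporter GLUT3, read 182.4 and 218.8 in IKDC, 240.2 and 342.5 in cDC, and 283.8 and 165.4 in PDC. Both IKDC samples lay below both cDC samples, PDC overlapped both populations, and no difference passed.

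The promoters of 5 genes are shown. Hk2 and Mdh2 passed in both comparisons with cDC, and Pgk1, Pgam1 and Ldha are the genes lowest in both PDC samples that hold the letters ACGTG at their first start. Each is the 250 bases before the transcript start in RefSeq (GRCm38.p6), read 5′ to 3′ along the gene, with capitals for every ACGTG on either strand, so that CACGT is ACGTG on the opposite strand. The windows are chr6:82774455-82774704 on the minus strand for Hk2, chr5:135778399-135778648 on the plus strand for Mdh2, chrX:106186850-106187099 on the plus strand for Pgk1, chr19:41911621-41911870 on the plus strand for Pgam1, and chr7:46845554-46845803 on the plus strand for the first of 2 Ldha starts.
Hk2: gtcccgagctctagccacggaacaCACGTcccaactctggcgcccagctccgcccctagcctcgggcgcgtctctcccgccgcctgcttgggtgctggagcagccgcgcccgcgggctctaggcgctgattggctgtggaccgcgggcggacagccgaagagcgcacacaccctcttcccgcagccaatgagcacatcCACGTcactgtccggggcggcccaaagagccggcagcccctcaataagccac
Mdh2: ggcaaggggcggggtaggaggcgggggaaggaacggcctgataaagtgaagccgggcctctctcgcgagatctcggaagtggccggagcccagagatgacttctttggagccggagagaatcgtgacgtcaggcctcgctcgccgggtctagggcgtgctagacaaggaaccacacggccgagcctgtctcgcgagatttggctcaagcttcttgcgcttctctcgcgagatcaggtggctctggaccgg
Pgk1: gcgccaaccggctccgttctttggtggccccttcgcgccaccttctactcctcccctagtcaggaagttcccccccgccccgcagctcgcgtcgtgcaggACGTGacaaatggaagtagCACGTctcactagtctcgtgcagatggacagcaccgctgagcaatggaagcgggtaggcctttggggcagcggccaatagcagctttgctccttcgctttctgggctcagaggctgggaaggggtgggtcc
Pgam1: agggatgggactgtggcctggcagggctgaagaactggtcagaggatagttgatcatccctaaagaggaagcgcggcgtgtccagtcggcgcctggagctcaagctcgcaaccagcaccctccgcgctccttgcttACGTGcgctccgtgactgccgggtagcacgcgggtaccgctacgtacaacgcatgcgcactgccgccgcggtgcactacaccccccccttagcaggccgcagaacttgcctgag
Ldha: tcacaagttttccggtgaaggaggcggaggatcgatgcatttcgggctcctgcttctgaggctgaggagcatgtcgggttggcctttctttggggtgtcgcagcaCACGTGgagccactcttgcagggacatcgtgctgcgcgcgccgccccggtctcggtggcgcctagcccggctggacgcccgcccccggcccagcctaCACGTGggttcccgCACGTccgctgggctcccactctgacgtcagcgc

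The Hk2 window holds ACGTG at 226 and 52 bases before the start, the Pgk1 window at 150 and 131, and the Pgam1 window at 114. The Mdh2 window holds none. Among the other genes lowest in both PDC samples, Tpi1 holds none, Pkm holds 1 at its second start, and Idh3a had no promoter listed. The window of the second Ldha start, not shown, holds none. The Ldha window holds the palindrome CACGTG in 2 places, at 145 and 48 bases before the start, and a further ACGTG at 34. Because CACGTG contains ACGTG on both strands, every CACGTG is also counted as ACGTG. A promoter was listed for 33 of the 36 genes, and 11 of those 33 held ACGTG on either strand, against 18.5% of 27025 genes with a promoter in the table. CACGTG was held by Ldha and Ogdh, 2 of 33, against 6.86% of genes. Of the 7 genes that passed, 2 held ACGTG, Hk2 and Pgam1, and none held CACGTG. These matches are letters in a window and were not tested for binding.

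Upper glycolysis turns glucose 6-phosphate into triose phosphates, and phosphofructokinase is its main control point. Pfkp encodes the platelet-type phosphofructokinase. Its signal was 317.9 and 351.5 in IKDC, 79.1 and 108 in cDC, and 91.1 and 112.9 in PDC. Both IKDC samples were above the 4 others, and the cDC and PDC values overlapped. IKDC exceeded cDC 3.58-fold (log2 difference 1.69, SE 0.31, adjusted p = 0.00757 by limma) and PDC 3.28-fold (log2 difference 1.58, SE 0.31, adjusted p = 0.0128 by limma).

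A second U74A probe set of Pfkp read 280.6 and 208.7 in IKDC, 79.8 and 96.7 in cDC, and 71 and 74.5 in PDC. It also passed in both comparisons, with adjusted p-values of 0.0364 and 0.0186 by limma. The third, on U74B, read 76.4 and 14.8 in IKDC and 117.3 and 81.2 in cDC. Its difference of -1.09 (SE 0.61, adjusted p = 0.383 by limma) had the opposite sign and did not pass. The 2 U74A probe sets of Pfkp thus point the same way and the U74B one does not.

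Pfkl, the liver-type phosphofructokinase, read 403.2 and 421.3 in IKDC, 262.6 and 307.8 in cDC, and 411.3 and 379.2 in PDC. Both cDC samples were the lowest, but no difference passed. Aldoa, the main aldolase, read 700.1 to 1322 over the 6 samples with overlapping populations. Its other probe set differed in sign between IKDC and cDC, and neither passed. Tpi1, triosephosphate isomerase, read 687.4 and 693.1 in IKDC, 505.9 and 597.3 in cDC, and 430.9 and 262.8 in PDC. The Tpi1 groups did not overlap, and IKDC was 1.99-fold above PDC (95% interval 0.34 to 1.66 on the log2 scale, adjusted p = 0.102 by limma).

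Lower glycolysis runs from glyceraldehyde 3-phosphate to pyruvate. Pgam1 encodes phosphoglycerate mutase, which moves the phosphate from carbon 3 to carbon 2 of phosphoglycerate. Its signal was 740.4 and 574.8 in IKDC, 337.1 and 439.8 in cDC, and 281.5 and 292.1 in PDC. The IKDC samples were the highest and the PDC samples the lowest, with no overlap. IKDC exceeded PDC 2.29-fold (log2 difference 1.14, SE 0.28, adjusted p = 0.0444 by limma), whereas IKDC minus cDC was 0.74 (SE 0.28, adjusted p = 0.182). Pgam1 was close to the threshold. It did not pass with median centring, quantile normalization, a fit of only the 2 populations or without the intensity trend. Over all alternative settings and the fits with 1 sample left out, its IKDC minus PDC estimate ran from 0.97 to 1.32.

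Gapdh oxidises glyceraldehyde 3-phosphate and was read by 9 control probe sets, at the 3' end, middle and 5' end of the transcript on each array type. The other 9 of its control probe sets are for the sense strand, reached at most 565.8 and were left aside. On U74A the 3' probe set read 3723 and 3336 in IKDC, 3872 and 3941 in cDC, and 2540 and 2204 in PDC. Both PDC samples were below the other 4 samples on 9 of 9 probe sets. The PDC mean was 49.5% to 70.9% of the cDC mean over these probe sets, and 54.5% to 71.5% of the IKDC mean. The IKDC mean was 75.2% to 127% of the cDC mean. The probe sets measure 1 gene in the same RNA and are not replicates. Control probe sets stood outside the fit, so Gapdh has no test.

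**Figure D2:**
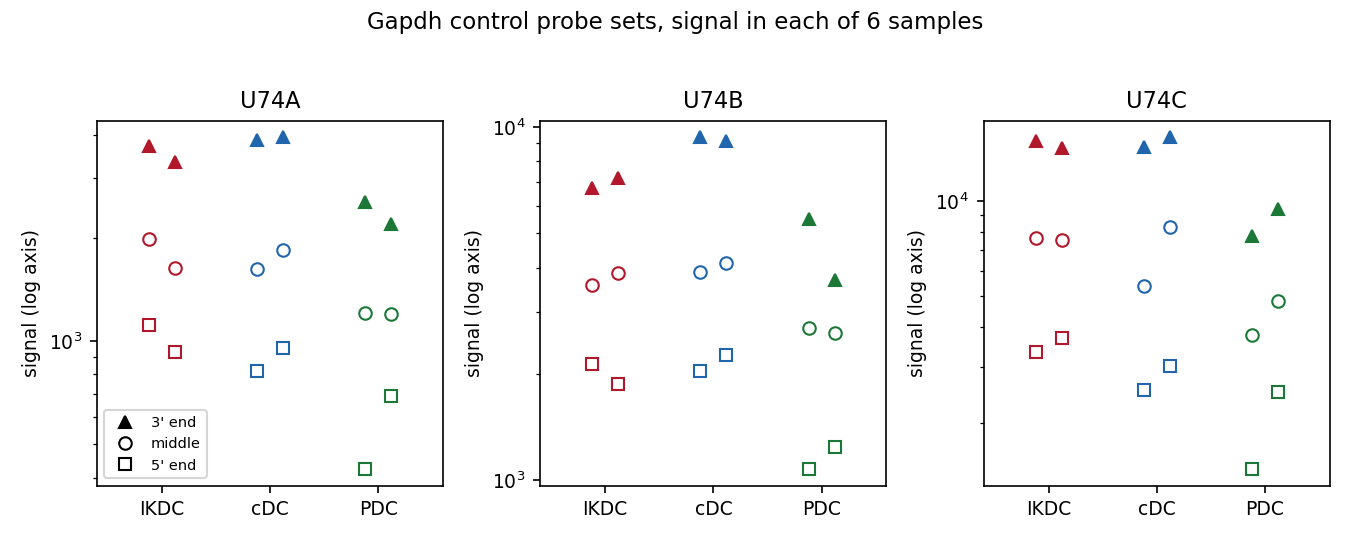
Signal (y axis, log scale, authors' scaled units) of the Gapdh control probe sets for the 3' end (filled triangles), middle (open circles) and 5' end (open squares) on each array type, with 1 symbol per sample in IKDC, cDC and PDC. On U74A the 3' values are 2540 and 2204 in PDC and 3336 to 3941 in the other 4 samples, and the same order holds for all 9 probe sets.

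The neighbouring enzymes were read in the same order. Pgk1, phosphoglycerate kinase, read 620.9 and 453.6 in IKDC, 530.3 and 833.9 in cDC, and 305.6 and 315.5 in PDC. Pkm, pyruvate kinase, read 961.7 and 802.7 in IKDC, 854.6 and 1188 in cDC, and 496.1 and 678.4 in PDC. For both genes the 2 PDC samples lay below all 4 others, while IKDC and cDC overlapped. In PDC minus cDC the estimate was -1.06 (SE 0.31, adjusted p = 0.0977 by limma) for Pgk1 and -0.78 (SE 0.29, adjusted p = 0.22) for Pkm.

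A second U74A probe set of Pkm read 744 and 667.1 in IKDC, 909.8 and 598.8 in cDC, and 286.4 and 287.3 in PDC. It passed in PDC minus cDC (-1.32, SE 0.29, adjusted p = 0.0275 by limma) and in IKDC minus PDC (1.25, SE 0.29, adjusted p = 0.031). Pkm was therefore called by 1 of its 3 tested probe sets and not by the brightest, which represents the gene.

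Ldha and Ldhb encode the 2 subunits of lactate dehydrogenase, of which the A subunit is known to favour lactate formation and the B subunit its use. Ldha read 2228 and 1905 in IKDC, 1905 and 3107 in cDC, and 1146 and 1375 in PDC. Ldhb read 41.7 and 59.2 in IKDC, 81.5 and 103.2 in cDC, and 223.2 and 196.2 in PDC. The PDC samples were the lowest for Ldha and the highest for Ldhb. Ldhb was at least 3.49-fold lower in IKDC than in PDC (log2 difference -1.77, SE 0.34, adjusted p = 0.0103 by limma). PDC minus cDC was 1.06 (SE 0.34, adjusted p = 0.136) for Ldhb and -0.95 (SE 0.30, adjusted p = 0.137) for Ldha, and neither passed. The difference between the subunits was not tested. The other Ldhb probe set was under 13 in every sample.

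Counted over all 31 tested genes, both PDC samples lay below all 4 others for 6: Tpi1, Pgk1, Pgam1, Pkm, Ldha and Idh3a. Among all tested genes 8.84% had that order. Of these, 5 are glycolytic enzymes or lactate dehydrogenase, and Gapdh, counted apart, had the same order. Both PDC samples lay above all others for 1 gene, Ldhb, against 9.35% of all genes. This order was counted after the values had been seen and is a description, and none of the 6 passed in PDC versus cDC. Their signals come from the same 2 PDC libraries. Gapdh, Pgam1 and Ldha have near-identical pseudogene copies in the genome, and signal from such copies cannot be told apart on these arrays.

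For the other populations the counts were as follows. Both IKDC samples lay above all others for 5 genes (Slc2a1, Pfkp, Tpi1, Pgam1 and Pdha1), against 14.2% of all genes, and below all others for 6 (Ldhb, Taldo1, Dlat, Idh1, Idh2 and Fh1), against 12.3%. Both cDC samples lay above all others for 5 (Hk2, Taldo1, Idh1, Fh1 and Mdh2), against 12.5%, and below for 2 (Pfkl and Sdhc), against 11.9%.

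**Figure D3:**
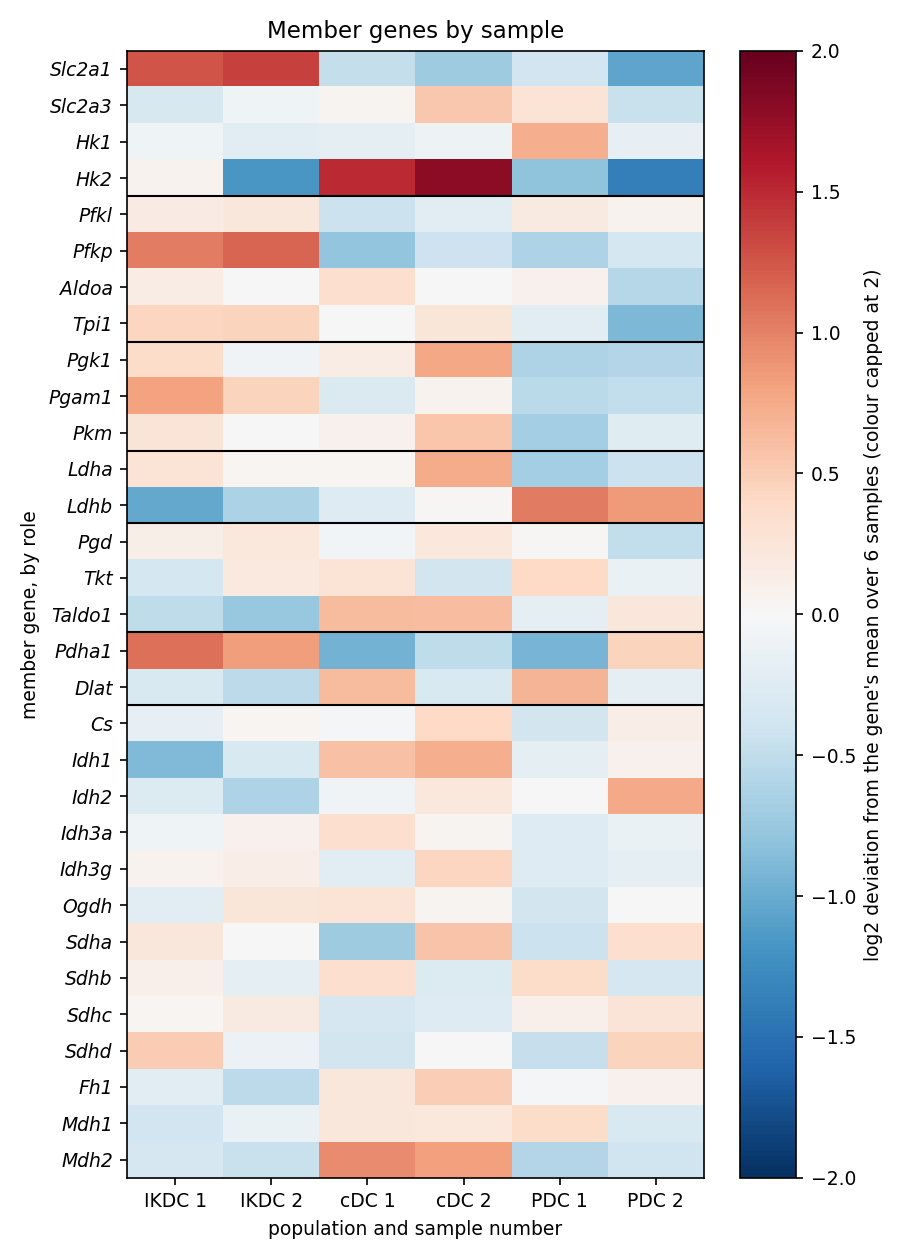
Deviation of each sample from the mean of that gene over the 6 samples (colour, log2 units) for the 31 tested genes (y axis, by role, black lines between roles) in the 6 samples (x axis). Blue fills both PDC columns from Tpi1 to Ldha, red fills both IKDC columns for Slc2a1, Pfkp and Pdha1, and red fills both cDC columns for Hk2, Taldo1 and Mdh2.

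The pentose phosphate pathway was covered by Pgd, Tkt and Taldo1. Taldo1 encodes transaldolase, an enzyme of the non-oxidative branch that exchanges sugars with glycolysis. Its signal was 626.9 and 522.4 in IKDC, 1389 and 1376 in cDC, and 778.6 and 1046 in PDC. The 3 populations did not overlap, with cDC highest and IKDC lowest. IKDC was 2.41-fold lower than cDC (log2 difference -1.25, SE 0.27, adjusted p = 0.0205 by limma), and PDC minus cDC was -0.61 (SE 0.27, adjusted p = 0.327). Under median centring and without the intensity trend Taldo1 did not pass.

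Pgd, 6-phosphogluconate dehydrogenase, which makes NADPH, read 187.8 to 314.2, and Tkt, transketolase, read 253.9 to 446.1. The Tkt populations overlapped, and for Pgd the IKDC samples lay above the PDC samples while cDC overlapped both. No difference passed. The 95% interval of the IKDC minus cDC difference was -0.57 to 0.73 for Pgd and -0.77 to 0.72 for Tkt. A dimmer Pgd probe set read 31.5 and 19.6 in IKDC and 91.8 and 73.6 in cDC, a difference of the opposite sign (-1.26, 95% interval -2.25 to -0.26) that did not pass either (adjusted p = 0.154 by limma).

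Pyruvate dehydrogenase was covered by Pdha1, the catalytic E1 alpha subunit, and Dlat, the E2 acetyltransferase. Pdha1 read 568.8 and 469.3 in IKDC, 126.6 and 175.5 in cDC, and 127.7 and 357.7 in PDC. Both IKDC samples were above all others, and the PDC samples differed from each other by 1.38 log2 units, the widest replicate gap of PDC. IKDC exceeded cDC 3.44-fold (log2 difference 1.69, SE 0.41, adjusted p = 0.0353 by limma), and IKDC minus PDC was 1.2 (SE 0.41, adjusted p = 0.167). Pdha1 did not pass under median centring, quantile normalization or without the intensity trend. Dlat read 52.5 to 142.8, and its 3 probe sets differed in sign with none passing.

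The TCA group held 13 genes, among them the cytosolic enzymes Idh1 and Mdh1, and 1 of the 13 passed. Mdh2 encodes mitochondrial malate dehydrogenase, which closes the cycle by remaking oxaloacetate. Its signal was 3656 and 3331 in cDC, 1499 and 1388 in IKDC, and 1247 and 1422 in PDC. Both cDC samples were above all 4 others, and IKDC and PDC overlapped. IKDC was 2.42-fold lower than cDC (log2 difference -1.27, SE 0.26, adjusted p = 0.0133 by limma) and PDC 2.62-fold lower (log2 difference -1.38, SE 0.26, adjusted p = 0.0113 by limma). IKDC minus PDC was 0.11, with a 95% interval of -0.45 to 0.67. Median centring took the IKDC call away and kept the PDC call.

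Its cytosolic counterpart Mdh1 read 123.3 to 218.1 and did not pass. Idh1 and Fh1 had both cDC samples highest and both IKDC samples lowest. Idh1, the cytosolic NADP-dependent isocitrate dehydrogenase, read 105.1 and 117.8 in cDC, 27.8 and 49.4 in IKDC, and 55.2 and 69.7 in PDC. Fh1, fumarate hydratase, read 782.1 and 947.3 in cDC, 568.1 and 459.5 in IKDC, and 649.2 and 713 in PDC. The IKDC minus cDC estimate was -1.25 (SE 0.39, adjusted p = 0.0998 by limma) for Idh1 and -0.73 (SE 0.27, adjusted p = 0.162) for Fh1, so neither passed.

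Idh2, the mitochondrial NADP-dependent enzyme, read 190.3 and 146.1 in IKDC, 220.1 and 273.1 in cDC, and 233.3 and 403.7 in PDC. Both IKDC samples were the lowest. The other members of the cycle were Cs, citrate synthase, Idh3a and Idh3g, subunits of the NAD-dependent isocitrate dehydrogenase, Ogdh, the E1 subunit of the 2-oxoglutarate dehydrogenase complex, and the 4 succinate dehydrogenase subunits Sdha, Sdhb, Sdhc and Sdhd. For the brightest probe set of each, no difference among these 8 genes reached 0.5 log2 units. The other tested probe set of Idh3g, Sdhb, Sdhc and Sdhd had the opposite sign in IKDC minus cDC, and none passed. For Cs the signal was 462.8 to 806, for Ogdh 325.8 to 516.6 and for Sdhb 685.9 to 1126. Sdhc read 276 and 289.6 in cDC and 362.9 to 425 in the other 4 samples, and did not pass. Over the 13 TCA genes the median log2 difference was -0.20 in IKDC versus cDC, -0.31 in PDC versus cDC and 0.06 in IKDC versus PDC. In IKDC versus PDC the 95% interval lay within 1 log2 unit of 0 for 10 of these 13 genes. That number was 5 in IKDC versus cDC and 7 in PDC versus cDC.

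**Figure D4:**
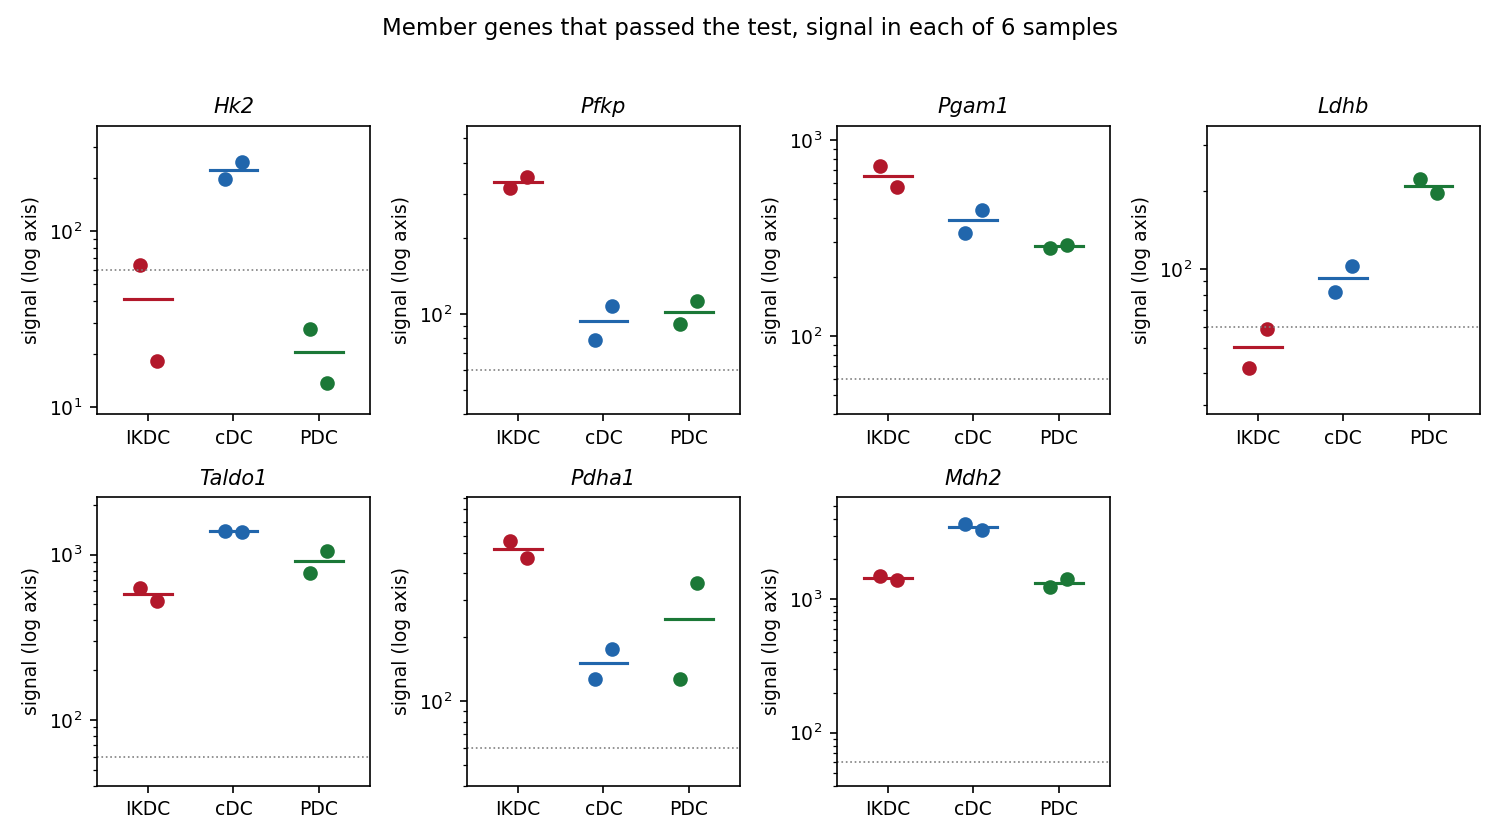
Signal (y axis, log scale) in each of the 6 samples for the 7 genes that passed in at least 1 comparison, with 1 point per sample, a bar at each mean of 2 samples and a dotted line at a signal of 60. For Hk2 and Mdh2 the cDC points lie above all others, for Pfkp the IKDC points, and for Ldhb the PDC points.

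Hk2, Taldo1 and Mdh2 were highest in cDC, where the monocyte and macrophage markers were also highest, with 6 of 7 lower in IKDC and 5 of 7 lower in PDC than in cDC. The summed signal of the conventional dendritic markers was highest in cDC as well. Pfkp and Pdha1 were highest in IKDC, where the summed signals of the NK receptor and killing markers and of the pancreas markers were also highest. Of 7 tested pancreas genes 5 were higher in IKDC than in cDC, but Amy2a5 read 26.1 and 4.6 in IKDC and 78.5 and 104 in cDC. The part of any marker list in these differences was not tested. Leaving out 1 sample left few calls: 0 of the 31 genes passed in IKDC versus cDC without IKDC sample 2 or without cDC sample 1, 1 without IKDC sample 1 (Hk2) and 1 without cDC sample 2 (Pfkp). In PDC versus cDC none passed without either cDC sample and 1 without PDC sample 1 (Hk2). In IKDC versus PDC none passed without either IKDC sample. No estimate of a gene that passed changed sign in any of these fits.

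The wider pathway was described with 65 further genes in 6 lists, of which 49 could be tested. In IKDC versus cDC 2 were higher and 2 lower, in PDC versus cDC 1 was higher and 2 lower, and in IKDC versus PDC 2 were higher and 1 lower. The shares of all tested genes were the 3.5% and 4.07%, 2.25% and 2.75%, and 2.71% and 3.17% given above. None of the 3 tested lactate and pyruvate transport genes, the 9 pyruvate dehydrogenase partners and regulators or the 10 further TCA genes passed in any comparison.

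Eno3 encodes beta-enolase, the muscle isozyme of the step after Pgam1. Its signal was 648.4 and 798.3 in cDC, 140.1 and 92.6 in IKDC, and 108.3 and 77.6 in PDC. Both cDC samples lay far above all 4 others. It was 6.22-fold lower in IKDC (log2 difference -2.50, SE 0.32, adjusted p = 7.28e-04 by limma) and 7.78-fold lower in PDC (log2 difference -2.77, SE 0.32, adjusted p = 5.52e-04 by limma). Eno3 passed in both comparisons under all 11 alternative settings and with each sample left out. The main leukocyte enolase Eno1 is not analysed here, so these isozymes could not be set side by side.

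Myc encodes the transcription factor known to raise many glycolytic genes. Its signal was 218.6 and 198.8 in IKDC, 51.8 and 39.3 in cDC, and 49.2 and 24.1 in PDC. It was at least 3.47-fold higher in IKDC than in cDC (log2 difference 1.87, SE 0.39, adjusted p = 0.0154 by limma) and at least 3.47-fold higher than in PDC (log2 difference 2.13, SE 0.39, adjusted p = 0.00805 by limma). Only the IKDC samples exceeded 60, and these alone brought Myc into the test. Both calls held in the 10 alternative settings that tested Myc, but not in every fit with 1 sample left out. Over all these fits the estimate ran from 1.32 to 2.18 against cDC and from 1.45 to 2.56 against PDC.

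Vhl encodes the recognition subunit of the ligase that marks Hif1a for destruction. It read 1279 and 1159 in IKDC, 2514 and 2389 in cDC, and 1760 and 1619 in PDC, with no overlap. It was 2.01-fold lower in IKDC than in cDC (95% interval of the log2 difference -1.49 to -0.51, adjusted p = 0.0276 by limma). That call was lost without the intensity trend, with the mean of probe sets and with 4 of the 6 samples left out in turn. A dimmer Vhl probe set passed in IKDC minus cDC (-1.36, SE 0.28, adjusted p = 0.0197 by limma). It also passed in PDC minus cDC (-1.25, SE 0.28, adjusted p = 0.0394), where the brightest did not (-0.53, adjusted p = 0.29). The remaining tested Vhl probe sets passed in no comparison. Gpd2 is the mitochondrial glycerol 3-phosphate dehydrogenase of the glycerol phosphate shuttle. It read 527.7 and 620.8 in IKDC, 607.7 and 728.2 in cDC, and 158.3 and 300.8 in PDC. Both PDC samples were the lowest, with PDC minus cDC at -1.54 (SE 0.32, adjusted p = 0.0282 by limma) and IKDC minus PDC at 1.32 (SE 0.32, adjusted p = 0.0482), of which the former call was lost in 3 of 11 alternative settings and the latter in 8. The other 4 tested Gpd2 probe sets did not pass in PDC minus cDC, with estimates of -0.16 to -0.75.

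Pgls encodes 6-phosphogluconolactonase, of the oxidative pentose phosphate branch. It read 678.7 and 468.7 in PDC, 203.6 and 241.1 in IKDC, and 234.6 and 223.7 in cDC. The PDC samples were above all 4 others, which overlapped. PDC exceeded cDC 2.5-fold (log2 difference 1.24, SE 0.29, adjusted p = 0.0406 by limma) and IKDC 2.58-fold (log2 difference of IKDC minus PDC -1.29, SE 0.29, adjusted p = 0.0298 by limma). The call against cDC was lost in 3 of 11 alternative settings and with 5 of the 6 samples left out in turn, and the call against IKDC in 2 of 11 settings and with 3 of the 6 samples left out.

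Bpgm encodes bisphosphoglycerate mutase, the enzyme that makes 2,3-bisphosphoglycerate in red cells. It read 1418 and 3065 in IKDC, 278.4 and 596.8 in cDC, and 1186 and 1213 in PDC. IKDC exceeded cDC 5.12-fold (log2 difference 2.31, SE 0.41, adjusted p = 0.00928 by limma), and PDC minus cDC was 1.52 (SE 0.41, adjusted p = 0.0877). Of the 8 erythroid marker genes 5 were higher in IKDC and 4 in PDC than in cDC, with the summed signals given above, and the others did not pass. Their part in the Bpgm difference was not tested.

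**Figure D5:**
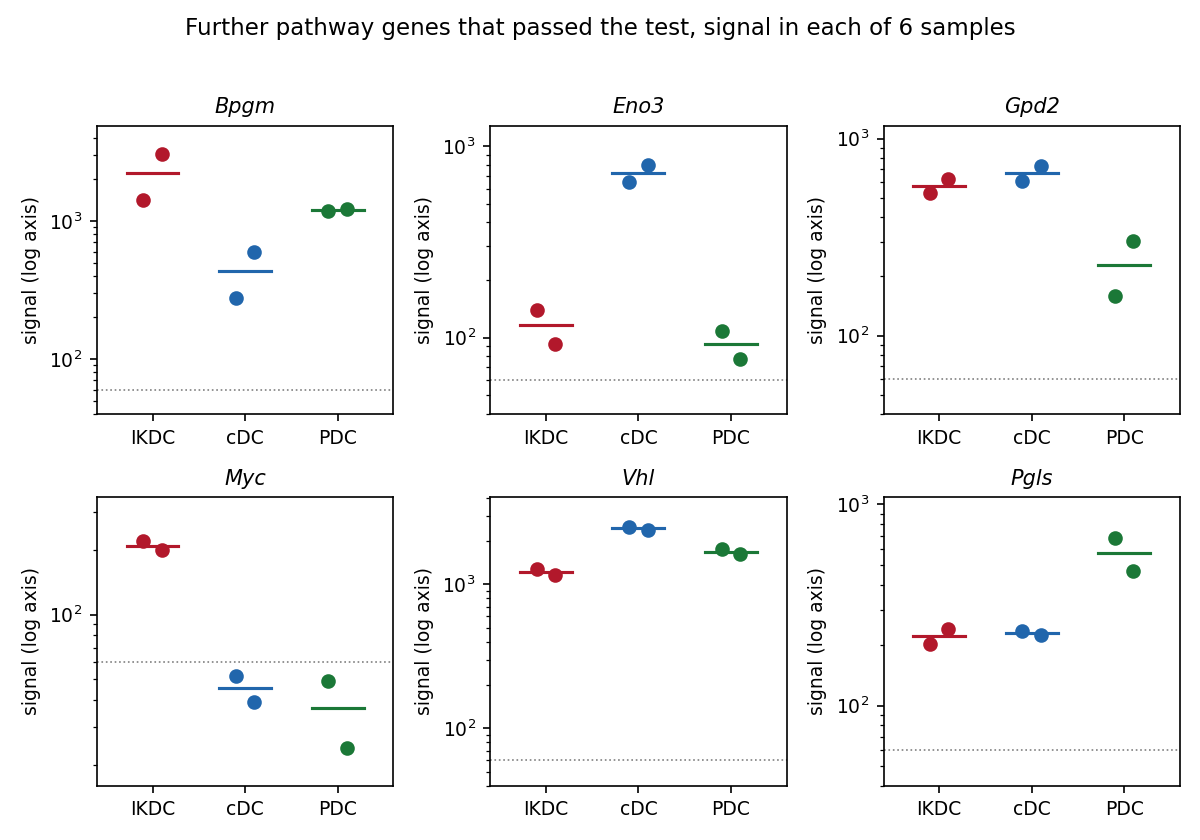
Signal (y axis, log scale) in each of the 6 samples for the 6 further pathway genes that passed in at least 1 comparison, with 1 point per sample, a bar at each mean of 2 samples and a dotted line at a signal of 60. Eno3 reads 648.4 and 798.3 in cDC and at most 140.1 elsewhere, Myc is above 60 only in IKDC, and Pgls is highest in PDC.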

How the data were processed

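The 18 arrays measure 6 samples, 2 of each population, on 3 array types, and group and sample number were taken from the titles. Per the labels' protocols, RNA was amplified in a pair of rounds, which favours the 3' end of transcripts. The deposited values are linear signal intensities that the authors made with GCOS 1.1.1 with every array scaled to the target 150. The submitters' processing notes name MAS 5. No detection calls were used, and precision is limited by the number of arrays.

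Testing was limited to probe sets that reached 60 on 2 or more of the 6 arrays, 23285 in all, and 198 control probe sets were left out. For each array type limma 3.58.1 (R 4.3.3; lmFit, eBayes with an intensity trend) was run on log2(signal + 16), with all 3 populations in 1 model, and p-values were adjusted over the 3 array types together. The fit was also run on simulated data, whose outcome is not given here. Unspiked bacterial controls reached 45.2 on U74A, 122.7 on U74B and 148.7 on U74C, so 60 is a weaker bound on the last pair. Of the 31 tested genes 29 were represented on U74A, 1 on U74B and 1 on U74C, and 15 had several tested probe sets.

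Gene names came from the platform annotation, in which 29197 probe sets had 1 symbol, 724 several and 6978 none listed. Those with several were not used to name a gene. Genes that passed in any comparison are given in full and the others in brief, and up to 4 passing genes per further list are named. The members, lists and tests were chosen with earlier results of these data known. Alternatives were the pseudocount, the filter, the scaling, the populations in the fit, the trend, the adjustment, the mean of probe sets, the replicate block and leaving out each sample.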

Additional observations from a re-analysis of the deposited data

How the results depend on the processing

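The counts of the 31 genes that passed were 5 in IKDC versus cDC, 2 in PDC versus cDC and 3 in IKDC versus PDC. They stayed within 1.5 times of these under the 11 alternative settings, with 2 exceptions: median centring gave 3 in IKDC versus cDC (Hk2, Pfkp and Slc2a1), and a filter at a signal of 200 gave 1 in PDC versus cDC, since it leaves Hk2 untested. The cause of the first was not tested. Leaving out 1 sample gave 0 to 6, 0 to 2 and 0 to 4 in the 3 comparisons. The lowest counts came without a sample of the populations compared, and the fit then assumes that the lone sample varies like the others. No estimate changed sign for any gene that passed. Samples with the same number deviated together weakly or not at all (9 correlations, -0.086 to 0.235). The highest was for cDC and PDC on U74A, the array type that represents 29 of the 31 genes. The numbers are not taken as pairs, and with the replicate block the counts were 5, 2 and 3 again. Only 2 samples a population, and a mean signal under 200 for 9 of the 31 genes, limit what these arrays can show.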
